A study of Saccharomyces cerevisiae with 6 samples.

Results

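The genes described here encode the general translation factors of the budding yeast Saccharomyces cerevisiae and the pathway that controls Gcn4, the master activator of amino acid synthesis genes. They are 45 named genes, found on the arrays by the open reading frame of each standard gene name, and all 45 had a probe among the 6256 gene probes. By the RefSeq annotation they lie on 13 chromosomes. RNA was compared between 2 strains, BH13 and REF, with 3 samples each. BH13 is a single mutant strain with improved resistance to coniferyl aldehyde, a phenolic aldehyde released from lignin, and REF is the reference strain it was set against. Both strains were grown without treatment in yeast minimal medium at 30 °C and 150 rpm to log phase, at an optical density of about 1.0, and each sample was read on its own one-colour Agilent array. The labels give neither the strain background nor the mating type of either strain, nor a lesion in BH13. They also do not say whether the 3 samples of a strain were started as separate cultures, so the p-values rest on a spread that may be technical.

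Initiation begins when eukaryotic initiation factor 2 (eIF2) carries the initiator tRNA to the small ribosomal subunit, which then scans the mRNA for a start codon with the help of eIF1, eIF1A, eIF3, eIF5 and the cap-binding factors. eIF2B recharges eIF2 with GTP after each round. When amino acids run short, the kinase Gcn2 phosphorylates eIF2, eIF2B is held back, general initiation slows, and ribosomes pass the short upstream reading frames of the GCN4 mRNA and translate Gcn4. Control of Gcn4 is thus largely translational, and the arrays measured RNA only. Genes named GCD repress GCN4 translation when intact, and genes named GCN are needed to raise it.

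Signals are given as log2 of the processed spot signal over the 75th percentile of the same array, so 0 is that percentile. Probes differ in how well they bind, so a signal is compared only between strains for the same probe. Differences are BH13 minus REF on this log2 scale, ± limma's standard error (n = 3 for each strain), and a gene was called when limma's Benjamini-Hochberg adjusted p over the 5890 genes tested was below 0.05. All 45 probes were well above background on all 6 arrays, and their number limits the precision. The median difference between the 2 spots of a probe on one array was 0.05 for these genes.

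The strains differed across most of the genome, with 81.3% of all genes called, 38.0% higher and 43.3% lower in BH13. The 3 values of BH13 and of REF did not overlap for 83.7% of genes. All 7 listed a-cell genes and all 8 listed haploid-specific genes were called lower in BH13, and for MFA2, AGA2 and HO no BH13 spot was well above background. The summed signal of the a-cell genes was 0.276 to 0.285 times the 75th percentile on the BH13 arrays, against 7.53 to 7.86 times on the REF arrays, and that of the haploid-specific genes was 0.557 to 0.574 times in BH13 and 7.28 to 7.41 times in REF. The summed signal of 5 alpha-cell genes was 0.159 to 0.194 times in BH13 and 0.174 to 0.213 times in REF. These genes went in different directions: of the 4 tested, 2 were called higher, 1 lower and 1 not called. For MF(ALPHA)2 no BH13 spot was well above background. The part of this difference in cell type genes in the results below was not tested. In RNA from whole cultures, fewer cells of a type and less RNA per cell cannot be told apart. All BH13 samples were hybridised on 1 slide, and the REF samples on 2 further slides that were scanned on a different day, so strain and day of scanning cannot be told apart.

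Messenger RNAs of the translation factors and of the Gcn4 pathway were broadly lower in BH13. Of the 45 genes, 40 were called lower and 0 were called higher, beside 43.3% lower and 38.0% higher among all genes tested. With limma's unadjusted p at the same threshold the number higher was also 0. The exceptions were EAP1, DED1, TEF1, TEF2 and HEF3, which did not pass the test. At the other end, RPG1, the largest subunit of eIF3, was 13.2-fold lower, YEF3, the fungal elongation factor 3, 4.25-fold lower and GCN4 itself 3.49-fold lower. The median difference was -0.82, against -0.07 over all genes, and the quartiles were -1.21 and -0.43, against -0.72 and 0.65 for all genes. At least 2-fold lower values were found for 16 members, beside 17.5% of all genes, and 0 members were at least 2-fold higher, beside 17.9% of all genes. The values of the strains did not overlap for the 40 genes that were called, 88.9% of the members. That share was near the 83.7% of all genes tested. In the order of differences among the 5890 genes, RPG1 stood 28th from the lowest.

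**Figure D1:**
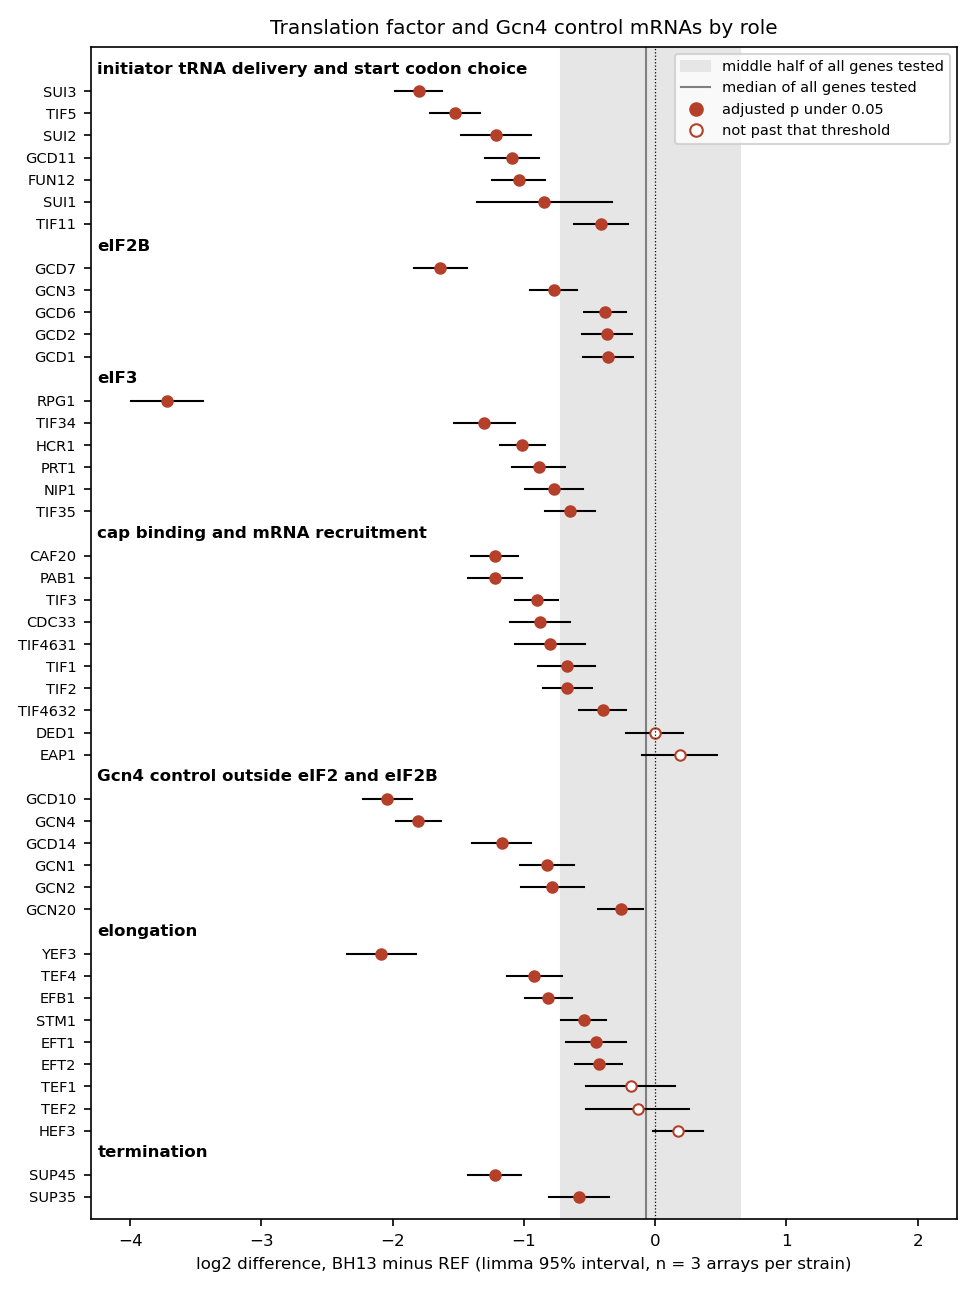
Difference between strains for each of the 45 genes, grouped by role, as log2 BH13 minus REF with limma's 95% interval (n = 3 arrays per strain). Filled points passed an adjusted p of 0.05 and open points did not, and the grey band and line are the interquartile range and the median of all 5890 genes tested. RPG1, YEF3 and GCD10 lie farthest to the left, at -3.72, -2.09 and -2.04, and the 5 open points lie between -0.19 and 0.19.

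GCN4 and the genes that act on its translation were lower together in BH13, activators and repressors alike. All 5 genes named GCN and all 7 genes named GCD were called lower, with medians of -0.78 and -1.09, beside 43.3% lower among all genes. GCN4 (YEL009C) had 1.78, 1.72 and 1.65 on the BH13 arrays, against 3.59, 3.46 and 3.51 on the REF arrays. The BH13 values lay close together and far below the REF values, with a difference of -1.81 ± 0.08 and a limma adjusted p of 1.68e-07. GCN2 (YDR283C), the kinase that senses uncharged tRNA and phosphorylates eIF2, had -2.29, -2.06 and -2.15 on the BH13 arrays, against -1.32, -1.27 and -1.56 on the REF arrays. Its strains did not overlap either, with a difference of -0.78 ± 0.10 (limma adjusted p = 0.000135). GCN1, which binds ribosomes and is needed to switch on Gcn2, differed by -0.82 ± 0.09. GCN20, the partner of Gcn1, had the smallest called difference of all members, at -0.26 ± 0.07, with 0.28, 0.18 and 0.14 on the BH13 arrays, against 0.46, 0.50 and 0.43 on the REF arrays (limma adjusted p = 0.00969).

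GCD10 (YNL062C) and GCD14 (YJL125C) encode the enzyme that methylates an adenosine of the initiator tRNA and other tRNAs. Both were at least 2-fold lower, beside 17.5% of all genes. GCD10 had -1.72, -1.53 and -1.71 on the BH13 arrays, against 0.35, 0.43 and 0.39 on the REF arrays, and GCD14 had -0.81, -0.72 and -0.65 on the BH13 arrays, against 0.63, 0.33 and 0.38 on the REF arrays. The differences were -2.04 ± 0.08 for GCD10, the third largest among the members, and -1.17 ± 0.10 for GCD14, and in both genes every BH13 value was lower than every REF value.

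The subunits of eIF2 were all at least 2-fold lower in BH13, beside 17.5% of all genes. Those of eIF2B were all called lower, beside 43.3% of all genes, but by unequal amounts. SUI2 (YJR007W), the alpha subunit and the target of Gcn2, had -0.29, -0.07 and -0.19 on the BH13 arrays, against 1.13, 1.17 and 0.79 on the REF arrays, a difference of -1.21 ± 0.12. SUI3 (YPL237W), the beta subunit, had -0.50, -0.57 and -0.56 on the BH13 arrays, against 1.16, 1.35 and 1.26 on the REF arrays, a difference of -1.80 ± 0.08. GCD11 (YER025W), the GTP-binding gamma subunit, had 0.68, 0.64 and 0.75 on the BH13 arrays, against 1.86, 1.86 and 1.63 on the REF arrays, a difference of -1.09 ± 0.09. In each of the 3 genes the strains were separated by a gap wider than the range within either strain. Limma adjusted p was 1.76e-05 for SUI2, 2.07e-07 for SUI3 and 6.56e-06 for GCD11.

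Within eIF2B, the catalytic subunits GCD1 and GCD6 differed by -0.36 ± 0.08 and -0.38 ± 0.07, and the regulatory subunits GCD2, GCN3 and GCD7 by -0.37 ± 0.08, -0.77 ± 0.08 and -1.64 ± 0.09. GCD7 (YLR291C), the beta subunit, had -2.66, -2.55 and -2.41 on the BH13 arrays, against -0.85, -0.89 and -0.97 on the REF arrays, and was the only one of the 5 to be 2-fold lower. Its 95% interval of -1.84 to -1.44 lay below that of GCN3, at -0.96 to -0.59, and those of the other 3. Relative to the mean of the other 4 subunits on the same array, GCD7 stood at -2.54, -2.49 and -2.29 on the BH13 arrays, against -1.23, -1.34 and -1.25 on the REF arrays. That ratio was chosen after the values were seen and is given as a description. The 2 spots of the GCD7 probe differed by up to 0.473 on 1 array, the largest such gap among the members.

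The factors that choose the start codon and join the subunits were called lower too, beside 43.3% of all genes, from TIF5 at the low end to TIF11. TIF5 (YPR041W), encoding eIF5, which makes eIF2 hydrolyse its GTP, had -1.80, -1.68 and -1.65 on the BH13 arrays, against -0.08, -0.27 and -0.22 on the REF arrays, a difference of -1.52 ± 0.08 (limma adjusted p = 6.71e-07). FUN12 (YAL035W), encoding eIF5B, which joins the large subunit, had 1.502, 1.46 and 1.44 on the BH13 arrays, against 2.52, 2.64 and 2.36 on the REF arrays, a difference of -1.04 ± 0.09. The strains did not overlap in either gene. TIF11, encoding eIF1A, differed by -0.41 ± 0.09 (limma adjusted p = 0.00262). SUI1, encoding eIF1, had the widest spread of any member, with 0.23, -0.75 and -0.41 on the BH13 arrays, against 0.62, 0.35 and 0.64 on the REF arrays. The BH13 values spanned 0.978 without reaching the REF values, and the difference was -0.85 ± 0.22 (limma adjusted p = 0.00727).

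All 6 genes of eIF3, the scaffold that holds the initiation complex on the small subunit, were lower in BH13, beside 43.3% of all genes. RPG1 was lower by far more than the rest. RPG1 (YBR079C), which encodes eIF3a and is also called TIF32, had -2.26, -2.26 and -2.50 on the BH13 arrays, against 1.251, 1.61 and 1.28 on the REF arrays. The gap between the strains was many times the range within either, and the difference was -3.72 ± 0.12 (limma adjusted p = 6.62e-08). The other 5 subunits differed by between -1.30 and -0.65, and the interval for RPG1, -3.99 to -3.45, lay below all of theirs. Relative to the mean of the other 5 on the same array, RPG1 stood at -3.05, -3.06 and -3.21 in BH13, against -0.43, -0.17 and -0.34 in REF, again a description chosen after the values were seen.

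TIF34 (YMR146C), encoding eIF3i, had 1.52, 1.75 and 1.49 on the BH13 arrays, against 2.84, 3.02 and 2.80 on the REF arrays, a difference of -1.30 ± 0.10. HCR1 (YLR192C), encoding the loosely bound eIF3j, had -0.998, -0.89 and -1.01 on the BH13 arrays, against 0.0037, 0.03 and 0.10 on the REF arrays, a difference of -1.01 ± 0.07. Both were thus at least 2-fold lower, beside 17.5% of all genes, with limma adjusted p of 4.6e-06 for TIF34 and 3.4e-06 for HCR1. PRT1, NIP1 and TIF35, which encode eIF3b, eIF3c and eIF3g, differed by -0.89 ± 0.09, -0.77 ± 0.09 and -0.65 ± 0.08.

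**Figure D2:**
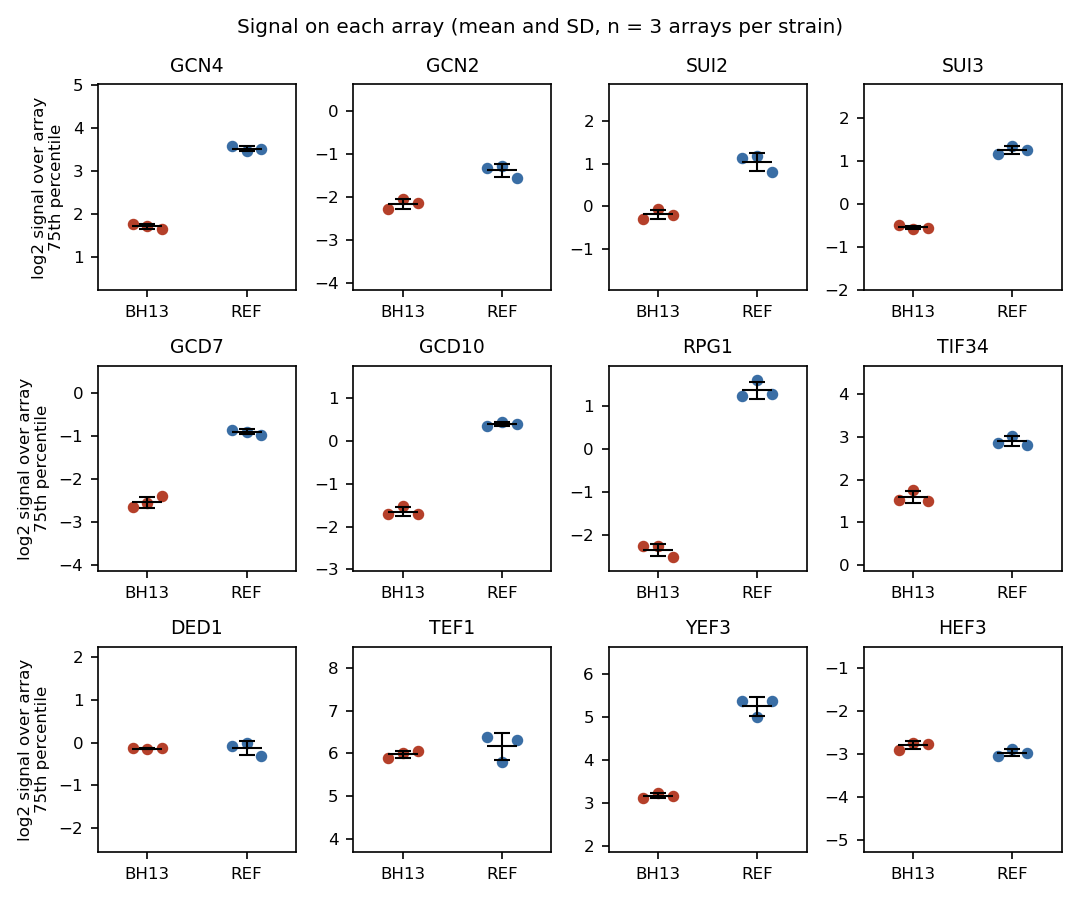
Log2 signal over the array's 75th percentile on each array for 12 of the genes, BH13 left and REF right in each panel, with the mean and SD (n = 3 arrays per strain). Each panel has its own range of equal width, so distances compare between panels and levels do not. The strains are separated in all panels but DED1, TEF1 and HEF3.

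Among the factors that bring mRNA to the ribosome, 8 of 10 were lower and 2 were not called. The share called, 80%, was near the 81.3% of all genes called in either direction, of which 43.3% were lower. PAB1 (YER165W), the poly(A)-binding protein, had 0.73, 0.63 and 0.71 on the BH13 arrays, against 2.05, 1.89 and 1.79 on the REF arrays, a difference of -1.22 ± 0.09 (limma adjusted p = 3.24e-06). CDC33, which encodes the cap-binding protein eIF4E, differed by -0.88 ± 0.10, and TIF3, which encodes eIF4B, by -0.90 ± 0.07. The genes for the scaffold eIF4G, TIF4631 and TIF4632, differed by -0.80 ± 0.11 and -0.40 ± 0.08. TIF1 and TIF2, which both encode the helicase eIF4A, differed by -0.68 ± 0.10 and -0.67 ± 0.08.

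Of the 2 inhibitors that compete with eIF4G for eIF4E, CAF20 was called lower and EAP1 was not called, and the difference between them was not tested. CAF20 (YOR276W) had 0.06, 0.07 and 0.005 on the BH13 arrays, against 1.23, 1.20 and 1.38 on the REF arrays, a difference of -1.22 ± 0.08 (limma adjusted p = 1.6e-06). EAP1 (YKL204W) had -1.11, -0.88 and -1.11 on the BH13 arrays, against -1.12, -1.08 and -1.47 on the REF arrays. Those strains overlapped, the difference was 0.19 ± 0.12 with an interval of -0.10 to 0.47, and it was not called (limma adjusted p = 0.194). DED1 (YOR204W), the helicase that helps ribosomes scan structured leaders, had -0.14, -0.15 and -0.14 on the BH13 arrays, against -0.09, -0.0036 and -0.32 on the REF arrays. It had the smallest difference of all members, followed by TEF2 and HEF3, with the BH13 values inside the REF range, a difference of -0.0049 and an interval of -0.22 to 0.21 (limma adjusted p = 0.964).

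Elongation factor genes ranged from YEF3 to HEF3, 6 of 9 (66.7%) being lower and 3 not called. Among all genes tested 43.3% were called lower and 81.3% in either direction. YEF3 (YLR249W), the ATPase that fungal ribosomes need to release the spent tRNA, had 3.101, 3.22 and 3.16 on the BH13 arrays, against 5.37, 4.99 and 5.38 on the REF arrays, a difference of -2.09 ± 0.11 (limma adjusted p = 7.02e-07). HEF3 (YNL014W), its paralog, had -2.90, -2.73 and -2.75 on the BH13 arrays, against -3.05, -2.88 and -2.96 on the REF arrays. The HEF3 values overlapped and its difference of 0.17 ± 0.08, with an interval of -0.02 to 0.36, was not called (limma adjusted p = 0.0873). With median centring, quantile or cyclic loess normalization HEF3 was called higher, by 0.20, 0.27 and 0.35 (limma adjusted p = 0.0491, 0.0165 and 0.00416).

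TEF1 (YPR080W) and TEF2 (YBR118W) encode elongation factor eEF1A, which delivers aminoacyl-tRNA to the ribosome. TEF1 had 5.88, 6.0 and 6.06 on the BH13 arrays, against 6.37, 5.81 and 6.32 on the REF arrays, and TEF2 had 5.98, 6.20 and 6.15 on the BH13 arrays, against 6.42, 5.82 and 6.49 on the REF arrays. In both genes REF replicate 2 stood apart from the other REF arrays and below every BH13 value. It was also the lowest REF array for YEF3, EFT2, TEF4 and EFB1, but not for EFT1, STM1 or HEF3. The 75th percentile of REF replicate 2 was 4905 intensity units, against 2790 and 2707 on the other REF arrays. The part of that array in its low TEF1 and TEF2 values was not tested. The differences were -0.19 ± 0.15 for TEF1, with an interval of -0.53 to 0.15, and -0.13 ± 0.17 for TEF2, with an interval of -0.52 to 0.26, and neither was called (limma adjusted p = 0.265 and 0.487). Without REF replicate 2 both were called lower, at -0.37 for TEF1 and -0.34 for TEF2 (limma adjusted p = 0.00624 and 0.0120). With quantile normalization on all 6 arrays they were called lower at -0.65 and -0.55 (limma adjusted p = 2.17e-05 and 6.47e-05). That method gives each rank the same value on every array. The SD of the log2 ratio of TEF1 to TEF2 over the REF arrays went from 0.09 to 0. The p-values under quantile normalization thus rest on a spread that the method had narrowed.

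EFB1 and TEF4, which encode subunits of the exchange factor that recharges eEF1A, differed by -0.82 ± 0.08 and -0.92 ± 0.09. EFT1 and EFT2, the genes of the translocase eEF2, differed by -0.45 ± 0.10 and -0.43 ± 0.08. STM1, which occupies idle ribosomes and preserves them through starvation, differed by -0.55 ± 0.08 (limma adjusted p = 0.000177). The release factor genes, which end translation at stop codons, were both called lower, beside 43.3% of all genes. SUP45 (YBR143C), encoding eRF1, which reads the stop codon, had 0.68, 0.56 and 0.79 on the BH13 arrays, against 1.88, 1.83 and 1.998 on the REF arrays, a difference of -1.22 ± 0.09 (limma adjusted p = 3.19e-06). SUP35, encoding its GTPase partner eRF3, differed by -0.58 ± 0.10 (limma adjusted p = 0.00061).

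Several factors have a paralog, and 8 pairs were compared by the log2 ratio of the 2 probes within each array. Pairs with near-identical sequence, TIF1 and TIF2, TEF1 and TEF2, and EFT1 and EFT2, may be read by each other's probes, so their values are uncertain as single genes, and their contrasts were -0.0046, -0.05 and -0.02, with overlapping ratios. How far the probes of the other pairs read their partner was not tested. For YEF3 over HEF3 the ratio was 5.95 ± 0.04 in BH13, against 8.21 ± 0.30 in REF (SD, n = 3 arrays each). The contrast of -2.26 was the largest of the 8, and no BH13 ratio came near a REF ratio. For TIF4631 over TIF4632 the contrast was -0.40, and for TEF4 over CAM1, which encode the same subunit of the exchange factor, it was -0.61.

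DBP1 and ANB1, partners of DED1 and of the eIF5A gene HYP2, are the other paralogs that differed in call from their partner. DBP1 had -4.04, -4.42 and -4.11 on the BH13 arrays, against -4.98, -5.28 and -5.00 on the REF arrays, and was called higher by 0.90 ± 0.13 (limma adjusted p = 0.000195). ANB1, which is known as the hypoxic eIF5A gene, had -3.98, -3.79 and -4.19 on the BH13 arrays, against -5.22, -4.90 and -4.55 on the REF arrays, and was called higher by 0.90 ± 0.17 (limma adjusted p = 0.00118), although its 2 spots differed by up to 0.77 on 1 array. Both signals were low, and with normexp background correction the differences were smaller, at 0.69 for DBP1 and 0.71 for ANB1. Negative controls had a net signal of 58.2 to 63.5 on BH13 arrays and 27.4 to 31.9 on REF arrays. The part of that background in these 2 differences was not tested. HYP2, at 0.02 ± 0.11 with an interval of -0.24 to 0.28, was not called (limma adjusted p = 0.858). The contrast was -0.90 for DED1 over DBP1 and -0.88 for HYP2 over ANB1. In 5 of the 8 pairs the ratios did not overlap between strains, and the exact two-sided permutation test gave p = 0.1 for each, the smallest that 3 against 3 arrays allow (adjusted p = 0.16 over the 8 pairs), so this test cannot reach a threshold of 0.05 here.

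**Figure D3:**
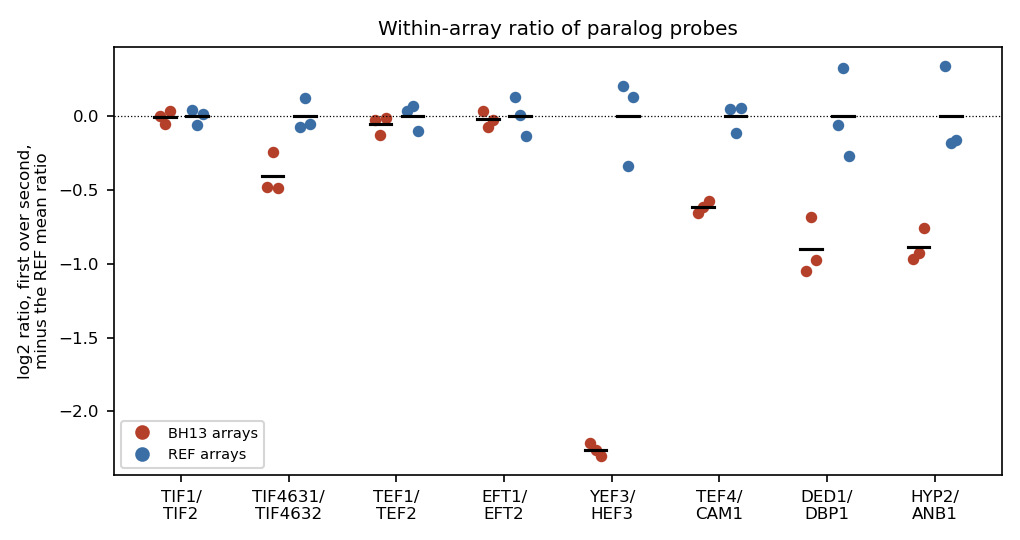
Log2 ratio of the first to the second probe of 8 paralog pairs on each array, after subtracting the pair's mean ratio in REF, BH13 left and REF right for each pair, with bars at the mean of 3 arrays. The BH13 ratios lie below the REF ratios for YEF3/HEF3, DED1/DBP1, HYP2/ANB1, TEF4/CAM1 and TIF4631/TIF4632, and mix with them for the other 3 pairs.

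Other genes of translation and of the Gcn4 pathway were mostly lower in BH13 as well. Of a list of 32, 24 (75%) were called lower, 4 (12.5%) higher and 4 not called, with a median of -0.65. Among all genes tested 43.3% were lower and 38.0% higher. The share of the list called in either direction, 87.5%, was near the 81.3% of all genes. Those with the largest differences were TMA46 at -2.05 ± 0.11, RLI1, which recycles ribosomes after termination, at -2.02 ± 0.11, TIF6, which keeps new large subunits from joining early, at -1.95 ± 0.10, and DPH2, which helps make the diphthamide of eEF2, at -1.69 ± 0.10. CDC123, which assembles eIF2, differed by -1.42 ± 0.07, and YIH1 and GIR2, which bind Gcn1 and restrain Gcn2, by -0.83 ± 0.09 and -1.11 ± 0.07. The 4 that were higher were DBP1, ANB1, PAN2 at 0.40 ± 0.11 and NGR1 at 0.28 ± 0.11. CDC123, YIH1, GIR2, PAN2 and NGR1 were named after their values were seen.

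Genes known as targets of Gcn4 in amino acid and purine synthesis were more often lower than higher in BH13. Of 38 listed, 22 (57.9%) were called lower, 4 (10.5%) higher and 12 not called, with a median of -0.61. Among all genes tested 43.3% were lower and 38.0% higher, and the 68.4% of the list called in either direction stood beside 81.3%. ILV3 and ILV1, of branched-chain amino acid synthesis, differed by -1.63 ± 0.07 and -1.55 ± 0.08, and ADE4, the first step of purine synthesis, by -1.52 ± 0.09. ARO3, of aromatic amino acid synthesis, had no BH13 spot well above background, so the size of its difference is uncertain. Its log2 difference was -5.15 ± 0.18 (limma adjusted p = 8.54e-08). It was 17.7-fold lower in BH13 when the lowest signal measured above background on each BH13 array was taken as its level there. With normexp background correction, which adds an offset of 50, its log2 difference was -1.90. The 4 higher targets, named after their values were seen, were ORT1 at 1.20 ± 0.12, SNZ1 at 0.92 ± 0.07, ASN1 at 0.61 ± 0.08 and HIS4 at 0.60 ± 0.08. Of the 4 histidine synthesis genes in the list, HIS1 and HIS3 were called lower, at -1.37 ± 0.10 and -1.34 ± 0.10, HIS4 was higher, and HIS5, at 0.05 ± 0.09, was not called (limma adjusted p = 0.655). This group was also named after its values were seen.

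Other parts of the protein synthesis machinery were set beside the translation factors and their median of -0.82. Of 21 cytosolic aminoacyl-tRNA synthetase genes, 19 were lower and 0 higher, all 21 differences were below 0, with a median of -0.61, and the largest differences were YHR020W at -1.57 ± 0.08, FRS1 at -1.55 ± 0.08, ALA1 at -1.34 ± 0.08 and VAS1 at -1.27 ± 0.07. All 44 listed ribosome assembly factors were lower, with a median of -1.67, led by DBP2 at -4.34 ± 0.09, RLP24 at -3.33 ± 0.10, DBP9 at -2.90 ± 0.08 and RCL1 at -2.87 ± 0.07. Of 137 cytosolic ribosomal protein genes, 79 (57.7%) were lower and 37 (27.0%) higher, beside 43.3% and 38.0% of all genes, with a median of -0.37. The share called in either direction, 84.7%, was near the 81.3% of all genes. The largest differences in that list were RPL21A at -2.23 ± 0.10, RPS10B at 1.72 ± 0.08, RPS28B at -1.71 ± 0.12 and RPS10A at 1.61 ± 0.08. These differences between lists are described by counts and medians and were not tested.

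**Figure D4:**
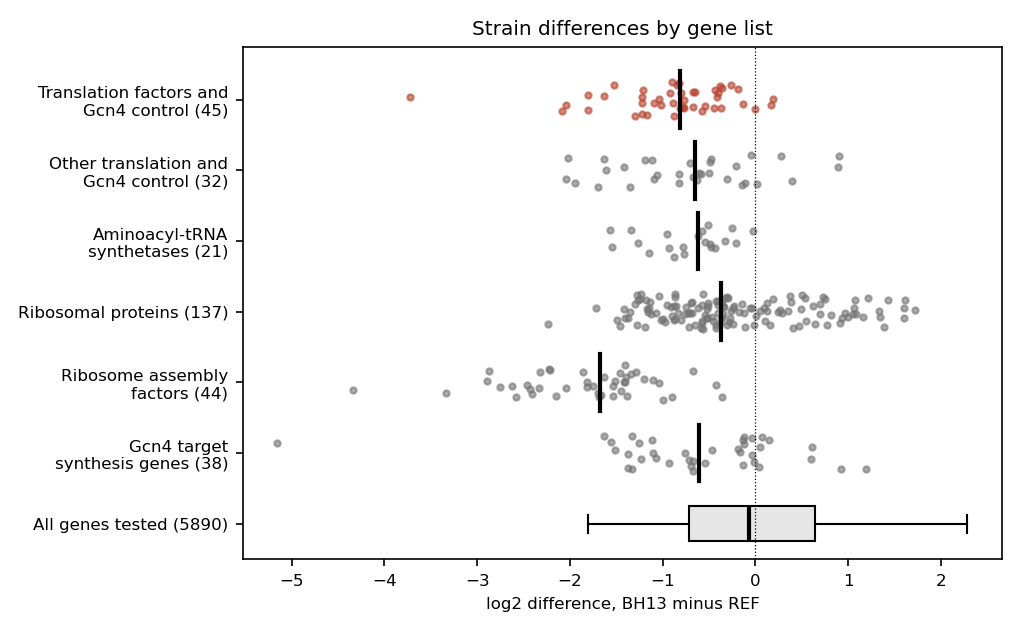
Log2 difference, BH13 minus REF, for each gene of 6 lists, with a black bar at each list's median, and for all 5890 genes tested as a box of the interquartile range with whiskers at the 5th and 95th percentiles. The median of the 45 translation factor and Gcn4 control genes is -0.82, that of the ribosome assembly factors -1.67 and that of the ribosomal proteins -0.37.

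The authors' deposited table of processed values holds 10 of the 45 genes among its 1325 probes. In the authors' deposited table all 10 were lower in BH13, from -3.71 for RPG1 to -0.97 for PRT1 as differences of strain means. Of its 1325 probes 744 were called lower and 581 higher, so every probe in it was called. YEF3 stood at -2.28 and GCN4 at -1.85 in the authors' deposited table, beside -2.09 and -1.81 from the scanner values. The rule by which that table's probes were chosen is not given in the sources used here, and the smallest difference in it is 0.916, so the lack of a gene there says nothing of its change.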

How the data were processed

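RNA from 3 BH13 and 3 REF samples, 200 ng each, was labelled with Cy3 and read on one-colour Agilent arrays, per the labels' protocols. Per the file headers, the deposited files give a linear intensity per spot from Agilent Feature Extraction 10.7.3.1, which had removed background and spatial trends, while the submitters' processing notes name version 9.1. A second deposited file, the authors' processed table, holds log2 values centred per probe on 0. By array, its medians stood at -0.58, -0.53 and -0.55 in BH13, against 0.56, 0.60 and 0.52 in REF. Its differences had a slope of 1.00 against the scanner values across 1324 probes, so its scale and direction could be told but not its normalization.

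Each of 6256 probes had 2 spots, and each gene had 1 probe. Control spots and outliers were left out, log2 processed signals averaged, and each array's 75th percentile subtracted (2301 to 2888 intensity units in BH13, 2707 to 4905 in REF). A probe had to be well above background in 3 or more of the 6 samples, which left 5890 genes. No spot was saturated. Names came from the RefSeq table of assembly R64, which matched 5756 systematic names, and its coordinates are not printed because the array design names another build. Strains were compared with limma 3.58.1 in R 4.3.3 (lmFit, eBayes, two-sided, Benjamini-Hochberg over 5890 genes). The method was tested on simulated data with few changed genes and no difference between slides or scan days, so that test does not bear on such differences. Paralog ratios were compared by exact permutation. Figures used matplotlib 3.10.9. The rule for genes described in full took the 16 called members with the largest differences and no overlap, GCN4, GCN2, SUI2, members not called, and paralogs that differed in call, with 4 genes from each other list. Members and lists were chosen with earlier results of these data known. Promoter motifs were not analysed here.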

Additional observations from a re-analysis of the deposited data

How the results depend on the processing

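The count of 40 members lower and 0 higher in BH13 was recomputed under 17 alternatives, and no member that was called lost its call or changed direction under any that held it. Median centring, quantile and cyclic loess normalization gave 1 member called higher, HEF3, and quantile normalization and leaving out REF replicate 2 gave 42 lower, adding TEF1 and TEF2. Leaving out each array in turn gave 40 to 42 members lower and 0 higher, and 4551 to 4769 genes called in all, against 4788. Taking the slide as a random block could not show a slide difference between the strains, because no slide held both. The authors' processed table gave 10 members lower and 1325 genes called, because it holds only 1325 probes and 10 members. Every probe in that table was called, so it could not show a lost call. The median over all genes lay between -0.08 and 0.01 under every alternative but that table, where the median was -1.17. Of 730 combinations of member and alternative, 723 kept their side of the threshold and 7 newly passed it. For the largest difference, RPG1, the range was -3.78 to -3.47, for GCN4 -1.95 to -1.68, and for GCN20, the smallest called, -0.30 to -0.19 with limma adjusted p of at most 0.0463. The YEF3 over HEF3 contrast moved to -2.60 with quantile normalization, and the other paralog contrasts moved by no more than the larger of the 2 strains' SDs of the ratio. Some of these moves exceeded the smaller SD, as for HYP2 over ANB1, at -1.14 with quantile normalization. Contrasts near 0 changed sign, TEF1 over TEF2 to 0.03 with normexp, and TIF1 over TIF2 to 0.0030 and EFT1 over EFT2 to 0.07 with quantile normalization. Under quantile normalization the TEF1 over TEF2 ratios no longer overlapped, with a contrast of -0.10. That method gives each rank the same value on every array, and the ratio was -0.05 on all 3 REF arrays. The lack of overlap there is thus no measure of the spread between arrays. Leaving out each array in turn gave -0.03 to 0.02 for TIF1 over TIF2, -0.09 to 0.04 for EFT1 over EFT2 and -0.10 to -0.02 for TEF1 over TEF2, whose ratios did not overlap in 1 of the 6. Filters, the variance model, the slide and the replicate number leave those contrasts as they are, and the authors' table holds no complete pair, so these were not run for them. The a-cell genes called lower went down to 4 when probes had to be well above background on all 6 arrays, which leaves out dim probes. Promoter motif shares were not run.

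Replicate numbers are shared between strains in the labels. With the replicate block 40 members were lower, 0 were higher and 4846 genes were called in all, which changed no member's call. Deviations of same-numbered arrays from their strain means correlated at 0.126, 0.242 and 0.00266 across genes, and BH13 replicate 3 correlated better with REF replicate 1, at 0.0756, so the numbers were not taken to pair the samples. Normexp was run on median spot signals. Probes near background would carry less certain differences, but all 45 members were well above it on all 6 arrays, where negative controls had a net signal of 58.2 to 63.5 on BH13 arrays and 27.4 to 31.9 on REF arrays.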
